A study of Mus musculus with 8 samples.

Results

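Transcripts of 10 genes that mark priming toward mast cells and basophils (Cpa3, Ms4a2, Fcer1a, Fcer1g, Prss34, Mcpt8, Hdc, Gzmb, Srgn and Cma1) were read in multipotent progenitors (MPPs) sorted from mouse bone marrow. They were taken by symbol from a table of 37980 genes. The cells were sorted as lineage-negative, CD48-, c-kit+, Sca1+, CD135+ and CD150-, with 1000 cells in each library, and 4 NA MPP libraries were compared with 4 WT MPP libraries. NA mice (NA LSL/+; Vav-Cre, C57BL/6) express the NUP98-HOXA10hd fusion, a fusion of the nuclear pore protein NUP98 with the DNA-binding homeodomain of HOXA10, from the Rosa26 locus after Cre recombination driven by the blood-wide Vav promoter. WT mice were C57BL/6. No age is given for these samples, and the WT mice are not said to carry Vav-Cre, so the fusion and the Cre cannot be told apart here. Nothing states that the libraries of a group came from separate mice, so p-values measure the spread between these libraries.

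Mast cells and basophils are granulated cells that arise from bone marrow progenitors and carry the high-affinity receptor for IgE, built of an IgE-binding alpha chain (Fcer1a), a beta chain that amplifies the signal (Ms4a2) and a gamma chain with signalling motifs (Fcer1g). Their granules pack proteases and histamine onto serglycin (Srgn), a proteoglycan core protein. The proteases include carboxypeptidase A3 (Cpa3) and the chymase Cma1 in mast cells, and Mcpt8 and Prss34 in mouse basophils, while histamine is made by histidine decarboxylase (Hdc). Kit drives mast cell growth, and GATA2 is the transcription factor that both lineages need. Srgn, Fcer1g and granzyme B (Gzmb) are shared with other blood cells, Srgn and Fcer1g widely and Gzmb with cytotoxic lymphocytes, so they are less specific than the other genes.

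The promoters of 6 of the genes are shown because GATA and RUNX factors were measured in the same libraries (Runx1 at 396 to 553 normalised counts, Gata2 below) and because these genes cover the abundant, the low and the undetected among the 10. Each line holds the 200 bases before an annotated start (RefSeq, GRCm38.p6), and capitals mark GATA letters (AGATAA or its variants with T first or G last) and RUNX letters (TGTGGT), read on both strands. They lie at chr10:62507758-62507957 for the inner start of Srgn, chr1:171234350-171234549 for Fcer1g, chr3:20242182-20242381 for Cpa3, chr14:56262335-56262534 for Gzmb and chr19:11623720-11623919 for Ms4a2, all on the minus strand, and at chr17:25298194-25298393 on the plus strand for Prss34.
Srgn: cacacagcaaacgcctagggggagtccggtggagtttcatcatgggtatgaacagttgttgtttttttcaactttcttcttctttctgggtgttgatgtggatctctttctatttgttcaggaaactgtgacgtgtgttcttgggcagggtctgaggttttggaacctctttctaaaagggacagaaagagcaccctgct
Fcer1g: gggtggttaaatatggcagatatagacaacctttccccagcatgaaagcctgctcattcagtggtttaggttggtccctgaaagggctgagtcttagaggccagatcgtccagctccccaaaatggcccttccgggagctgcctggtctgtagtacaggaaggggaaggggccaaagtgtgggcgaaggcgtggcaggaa
Cpa3: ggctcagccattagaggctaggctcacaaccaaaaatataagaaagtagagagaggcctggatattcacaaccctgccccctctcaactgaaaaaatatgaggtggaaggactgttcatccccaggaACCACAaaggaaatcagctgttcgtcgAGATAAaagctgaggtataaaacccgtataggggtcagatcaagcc
Gzmb: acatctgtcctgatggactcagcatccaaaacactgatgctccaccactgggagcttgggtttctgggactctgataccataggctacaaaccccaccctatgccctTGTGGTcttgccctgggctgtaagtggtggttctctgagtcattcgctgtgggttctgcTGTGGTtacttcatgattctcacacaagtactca
Ms4a2: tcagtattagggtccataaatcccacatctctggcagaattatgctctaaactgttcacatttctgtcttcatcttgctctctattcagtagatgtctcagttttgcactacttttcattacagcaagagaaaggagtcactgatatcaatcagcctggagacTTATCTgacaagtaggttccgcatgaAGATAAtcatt
Prss34: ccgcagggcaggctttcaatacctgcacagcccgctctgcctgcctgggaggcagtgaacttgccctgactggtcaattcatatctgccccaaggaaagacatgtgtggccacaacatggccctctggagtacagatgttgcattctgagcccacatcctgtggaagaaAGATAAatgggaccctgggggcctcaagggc
GATA letters occurred upstream of Cpa3, Ms4a2, Fcer1a, Prss34 and Cma1, or 5 of 10 genes, against 21.4% of 32851 windows of the same length. In Cpa3 they began 46 bases before the start, in Prss34 31 bases, and in Ms4a2 there were matches at 37 and 11 bases. RUNX letters occurred upstream of Cpa3, Fcer1a, Mcpt8 and Gzmb, or 4 of 10 genes, against 11.2% of all windows, with a pair in Gzmb at 93 and 34 bases. Neither was found before Fcer1g, Hdc or either annotated start of Srgn. The 2 motifs do not overlap in these windows. These are matches of letters only.

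Estimated depth was 3876904 to 4916986 reads per library, and values are normalised counts, in which 1 read was worth 0.888 to 1.18. A count of 0 allows up to 3 reads, which is 2.66 to 3.54 normalised counts. These limits and all intervals on reads cover counting error only, since the cDNA was amplified and carried no molecular identifiers. The sorted cells carried Kit (1103 to 1490 normalised counts), Flt3, Ly6a and Cd34 in all 8 libraries. Some facts bear on every comparison below. The Y-linked gene Ddx3y was at 281 to 668 in NA MPPs and at most 0.888 in WT MPPs, with the female transcript Xist the other way, so sex and genotype cannot be told apart. NA4 and WT4 were nearer to a mixture of the 3 other libraries of their group than was estimated for an independent library. The variance beyond counting noise that such a mixture left was 0.00713 for NA4 and 0.00130 for WT4. The least that an independent library would leave was estimated at 0.0101 and 0.00726. These estimates carry no interval, so independence is not excluded. Calls are therefore also given without NA4 and WT4. In bulk samples, fewer cells of a type and less RNA per cell cannot be told apart.

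Levels of the 10 genes ran from no read in any library to 7148 normalised counts. Srgn held 96.7% to 97.9% of their summed values in each library, Fcer1g came next, 4 genes (Cpa3, Gzmb, Hdc and Ms4a2) had at most 21 reads in any library, and 4 (Fcer1a, Prss34, Mcpt8 and Cma1) had no read in any of the 8. By limma on log2(normalised count + 1), with an adjusted p below 0.05, 0 of the 3 genes that passed the filter on low values (Srgn, Fcer1g and Cpa3) differed between NA and WT MPPs, where 17.9% of 11451 genes tested were called (10.1% higher and 7.87% lower). At an unadjusted p below 0.05 there were 2 of the 3, Srgn and Fcer1g. Without NA4 and WT4, neither Srgn nor Fcer1g was called and Cpa3 did not pass the filter, where 4.63% of 11117 genes were (3.33% higher and 1.3% lower). The plot of all 10 genes by library shows these levels.

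**Figure D1:**
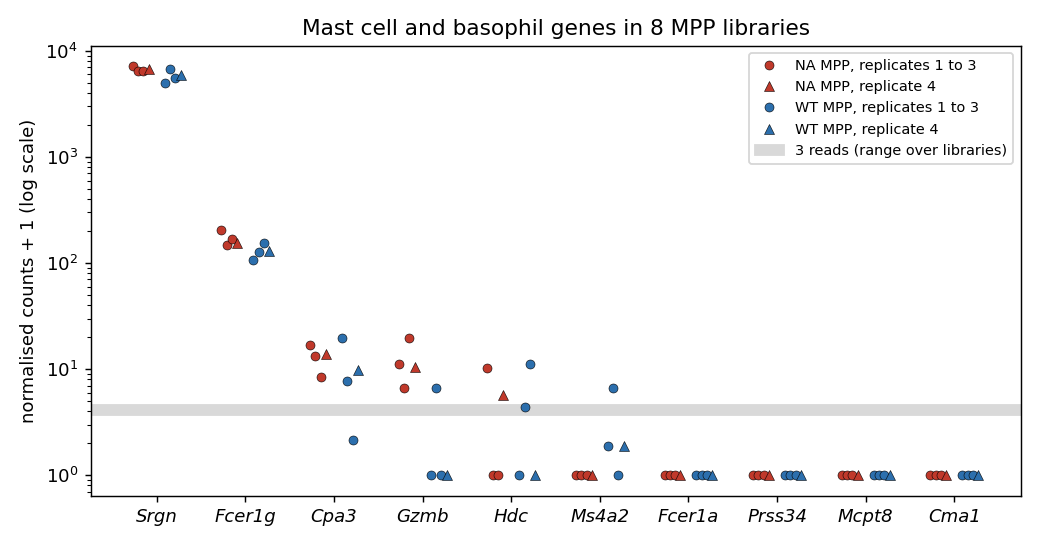
Normalised counts plus 1 on a log axis for the 10 genes in each NA MPP (red) and WT MPP (blue) library, with triangles for replicate 4 and a grey band for the value of 3 reads. Srgn lies at 5028 or more in every library, Fcer1g between 106 and 205, and Fcer1a, Prss34, Mcpt8 and Cma1 at 0 throughout.

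Srgn (ENSMUSG00000020077, chr10:62493833-62527451), the granule core protein, ranked from 59 to 84 among all genes by normalised count in the 8 libraries. Its values were 7148, 6499, 6449 and 6762 normalised counts in NA1 to NA4 and 5028, 6762, 5536 and 5978 in WT1 to WT4. The groups overlapped, because WT2 lay above 2 of the NA libraries and level with NA4, while WT1 and WT3 were the lowest. The difference was 0.21 on the log2 scale (SE 0.087, 95% interval 0.026 to 0.399, limma adjusted p = 0.107). Leaving out WT2 gave 0.29 (limma adjusted p = 0.0318), the only fit without a single library in which any of the 3 genes was called, and leaving out WT1 gave 0.14 (limma adjusted p = 0.268). Without NA4 and WT4 the difference was 0.22 (limma adjusted p = 0.266).

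Fcer1g (ENSMUSG00000058715, chr1:171229572-171234365), the gamma chain that also serves other Fc receptors, was at 205, 147, 168 and 154 normalised counts in NA1 to NA4. In WT1 to WT4 it was at 106, 127, 153 and 129. NA1 stood highest and WT1 lowest, and WT3 lay above NA2, so the groups overlapped. The log2 difference was 0.39 (SE 0.167, 95% interval 0.031 to 0.745, limma adjusted p = 0.123), and 0.43 without NA4 and WT4 (limma adjusted p = 0.313). The other chains of the receptor were at or near 0. Fcer1a (chr1:173221284-173227214), the chain that binds IgE, had no read in any library, which over a group allows up to 0.161 RPM (NA) and 0.171 RPM (WT), in reads scaled to the depth of the group.

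Ms4a2 (ENSMUSG00000024680, chr19:11615523-11623719), the beta chain, had 0 reads in each NA library and 1, 5, 0 and 1 reads in WT1 to WT4. Of these 7 reads, 5 came from WT2. The WT mean of 1.86 normalised counts was below the value of 3 reads, so no fold is given. In the fit without a filter the log2 difference was -1.14 (limma adjusted p = 0.207). Of the 3 chains of the receptor, the gamma chain was thus the one with reads in every library.

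Among the 5 proteases of the 10 genes, Cpa3 (ENSMUSG00000001865, chr3:20215620-20242181), a carboxypeptidase of immature and mature mast cells, was the one with reads in all 8 libraries. It was at 15.9, 12.2, 7.39 and 13 normalised counts in NA1 to NA4 and at 18.6, 6.79, 1.14 and 8.88 in WT1 to WT4. WT1 was the highest library of all and WT3, with 1 read, the lowest, so the WT range enclosed the NA range. The log2 difference of 0.75 had a wide error (SE 0.648, 95% interval -0.63 to 2.14, limma adjusted p = 0.449), and was 0.15 without WT3. Over each group there were 49 NA and 38 WT reads, a ratio of 1.27 per size-factor unit (exact 95% counting interval 0.817 to 2.0).

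Gzmb (ENSMUSG00000015437, chr14:56258838-56262260), a serine protease of cytotoxic cells that some mast cells also make, had 11, 6, 20 and 8 reads in NA1 to NA4. In WT1 to WT4 it had 0, 5, 0 and 0 reads. It was thus found in all 4 NA libraries and in 1 WT library, WT2, whose 5.66 normalised counts were just above the 5.64 of NA2. The totals of 45 and 5 reads gave a ratio of 8.89 (exact 95% counting interval 3.54 to 28.7), which leaves out the spread between libraries. The gene did not pass the filter on low values. In the fit without a filter, where 8.89% of 17710 genes were called (4.91% higher and 3.98% lower), its log2 difference was 2.79 (SE 0.694, limma adjusted p = 0.0392). Leaving out any 1 library other than WT2 ended that call (limma adjusted p from 0.0564 to 0.118), as did the replicate block (0.0989), a fit with no variance trend (0.0615) and log2 depth as a covariate (0.0591). Without NA4 and WT4 it was 2.59 (limma adjusted p = 0.250, where 0.775% of 17420 genes were called). Of 9 markers of NK and T cells, which also use granzyme B, Cd3e, Cd3g, Ncr1, Gzma, Cd8a and Il2rb were at 0 in all libraries, and the summed markers ran from 146 to 161 normalised counts in NA MPPs and from 120 to 145 in WT MPPs. Most of that sum was Nkg7. The NK marker Klrb1c was at 10.2 to 12.2 in NA MPPs and 2.28 to 8.88 in WT MPPs (log2 difference 1.02, limma adjusted p = 0.208). It passed the filter of at least 10 in at least 4 libraries through the NA libraries alone. Its lack of overlap was thus favoured by the filter, and 22.0% of 11451 genes tested had none either. The part of NK and T cells in the Gzmb values was not tested.

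**Figure D2:**
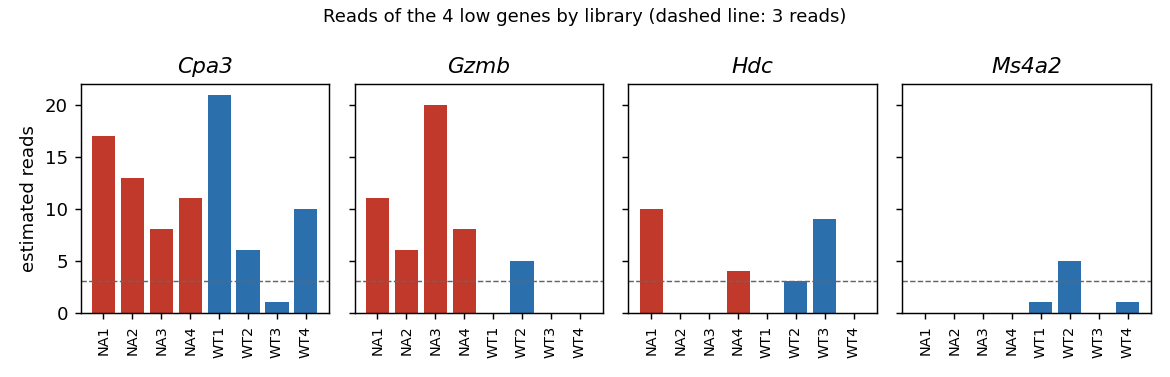
Estimated reads (bars, linear axis) of Cpa3, Gzmb, Hdc and Ms4a2 in each NA MPP (red) and WT MPP (blue) library, with a dashed line at 3 reads. Gzmb has 6 to 20 reads in the NA libraries and 5 in WT2 alone among the WT libraries, while Hdc is above 0 in 2 libraries of each group.

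Gzmb lies at one end of the chymase locus of chromosome 14, a cluster of related granule proteases, with Cma1 (chr14:55941451-55944675) at the other end and Mcpt8 (chr14:56082166-56085273) between them. Of the 15 protein-coding genes from Cma1 to Gzmb, 12 had no read in any library. Beside Gzmb, Ctsg, a protease of neutrophils and some mast cells, was above 0 in 3 WT libraries and in no NA library, with its highest value of 9.11 normalised counts in WT3. Mcpt2 had 1 read, in WT3. Prss34 (chr17:25298394-25300165), the basophil protease outside this locus, had no read in any library either. The tryptases Tpsb2, Tpsab1 and Tpsg1 were likewise at 0, so that 14 of the 16 further granule proteases examined were at 0 in all 8 libraries and none passed the filter. Reads shared by near-identical proteases can be divided between copies, so single values in these families are uncertain.

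Hdc (ENSMUSG00000027360, chr2:126593667-126619299), which makes histamine, had 10, 0, 0 and 4 reads in NA1 to NA4 and 0, 3, 9 and 0 reads in WT1 to WT4. Each group held a library with 9 or 10 reads and a pair without any. The totals of 14 and 12 reads gave a ratio of 1.15 (exact 95% counting interval 0.495 to 2.73), and the log2 difference without a filter was 0.065 (SE 1.03, limma adjusted p = 0.982). Its sign turned, to -0.75, without NA4 and WT4, and to between -0.57 and -0.28 without NA1, NA4, WT1 or WT4 alone.

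Per kilobase of annotated exon, the order of levels was the same in both groups for the first 3 genes. Srgn was at 3058 ± 146 normalised counts per kilobase in NA MPPs and 2653 ± 335 in WT, Fcer1g at 193 ± 30.0 and 147 ± 22.0, and Cpa3 at 7.99 ± 2.32 and 5.84 ± 4.81 (SD, n = 4 each). Gzmb followed at 7.63 ± 3.76 in NA MPPs, within the spread of Cpa3, and 0.986 ± 1.97 in WT MPPs, and Hdc (0.550 ± 0.700 and 0.534 ± 0.756) and Ms4a2 (0 and 0.661 ± 0.914) could not be ordered in WT MPPs beyond their spread (SD, n = 4 each). The steps from Srgn to Fcer1g and from Fcer1g to Cpa3 were larger than the ranges of the libraries. Exon lengths are of all annotated transcripts together, so these levels are approximate.

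The 3 tested genes whose profile over the 8 libraries was closest to that of Srgn were Stx5a, Osbpl9 and Zc3h14, with root mean square differences of centred log2 values of 0.046, 0.047 and 0.052, against a median of 0.33 over 11450 genes. Like Srgn they were lowest in WT1 and high in WT2, and none passed the test between groups (limma adjusted p from 0.0857 to 0.212).

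The wider programme of mast cells and basophils was read in 5 lists with 98 genes. Of 68 tested, 21 differed by limma, 9 higher and 12 lower in NA MPPs, or 30.9% against 17.9% of all genes tested. Of all calls 56.1% were higher, and 41.3% under scaling by the total count. Without NA4 and WT4, 2 genes of the lists, Ptpn6 and Cd9, were called, where 4.63% of 11117 genes tested were. The larger share of calls in the lists was thus not seen in that fit. The lists were chosen with earlier results of these data known, so no test of a list is given. The plot of changes by list shows every tested gene.

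**Figure D3:**
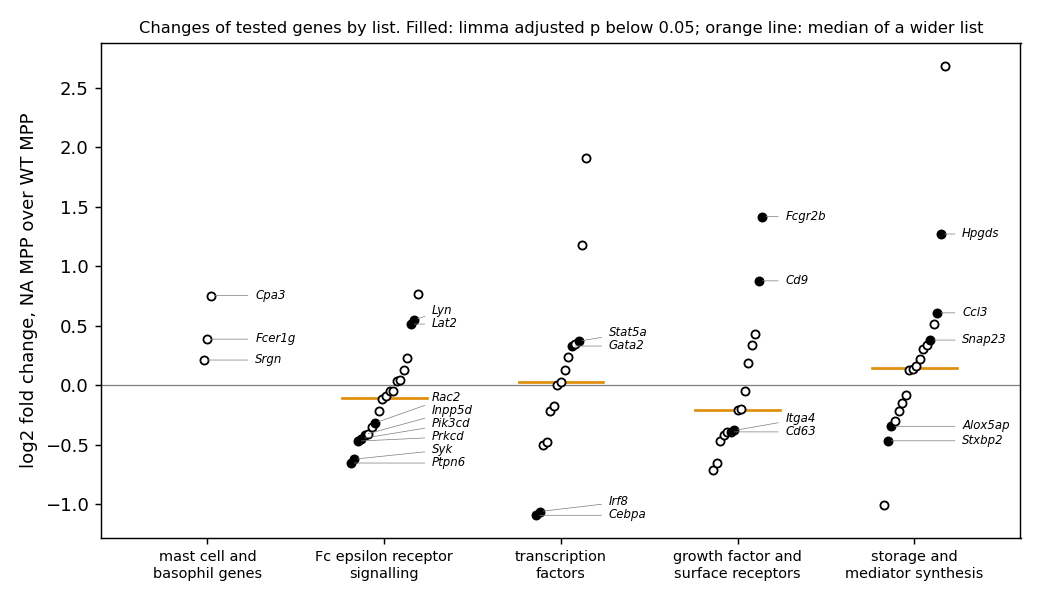
Log2 fold change of NA MPP over WT MPP for the tested genes of the mast cell and basophil group and of 4 wider lists, with filled points for limma adjusted p below 0.05 and an orange line for the median of each wider list. Called genes lie on both sides of 0 in each wider list, from Cebpa at -1.09 to Fcgr2b at 1.42.

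Transcripts for signalling below the IgE receptor were present throughout, with 20 of 20 genes tested, 2 called higher and 6 lower (median log2 fold change -0.11, against -0.011 over all genes tested). These calls were 40% of the list, against 17.9% of all genes tested. Without NA4 and WT4, 1 gene of the list was called, where 4.63% of 11117 genes were. Ptpn6, the phosphatase SHP-1 that dampens receptor signals, was at 922, 750, 755 and 796 normalised counts in NA1 to NA4 and at 1265, 1353, 1214 and 1231 in WT1 to WT4, with no overlap. It fell by 0.65 on the log2 scale (SE 0.090, limma adjusted p = 0.000255, and 0.00668 without NA4 and WT4). Syk, the kinase recruited to the gamma chain, was at 284, 351, 291 and 304 in NA MPPs and at 517, 530, 385 and 470 in WT MPPs. Its groups did not overlap either, and it fell by 0.62 (SE 0.125, limma adjusted p = 0.00390, and 0.0535 without NA4 and WT4). Lyn, the Src-family kinase that phosphorylates the receptor, went the other way, at 378, 336, 339 and 381 in NA MPPs and 257, 310, 166 and 266 in WT MPPs, a rise of 0.55 (limma adjusted p = 0.0330, and 0.150 without NA4 and WT4). The adaptor Lat2 rose by 0.51 (limma adjusted p = 0.0236, and 0.108 without NA4 and WT4). WT3 was the lowest library for both. The call of Lyn ended without NA1, NA2, NA4, WT3 or WT4 (limma adjusted p up to 0.0986) and that of Lat2 without NA1, NA4, WT2, WT3 or WT4 (up to 0.0593). Lyn was also not called under total count scaling (0.0539), with no filter (0.0862), with no variance trend (0.0912) or with log2 depth as a covariate (0.0676), nor Lat2 in the latter pair (0.0538 and 0.0570). Rac2, with the highest normalised counts of the list, was at 2510 ± 136 in NA and 3130 ± 252 in WT libraries (SD, n = 4 each), and fell by 0.32 (limma adjusted p = 0.0134, 0.0867 without NA4 and WT4, and 0.0819 with no variance trend). The kinase Prkcd fell by 0.47 (limma adjusted p = 0.00903), the lipid kinase subunit Pik3cd by 0.45 (0.0196, not called without NA4 or WT2, at most 0.0737) and the lipid phosphatase Inpp5d by 0.41 (0.0163, and 0.0590 without NA4).

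Of the transcription factors, 15 of 16 were tested and 4 called, 2 in each direction (median 0.024). The calls were 26.7% of those tested, against 17.9% of all genes tested. Gata2 was at 1161, 1199, 1061 and 1244 normalised counts in NA1 to NA4 and at 794, 1001, 994 and 931 in WT1 to WT4, so each NA library lay above each WT library. It rose by 0.33 (SE 0.095, limma adjusted p = 0.0275). Cebpa, which is needed for basophils and granulocytes, was at 41.1, 32.9, 14.8 and 24.8 in NA MPPs and at 56.8, 66.8, 43.3 and 68.4 in WT MPPs, and fell by 1.09 (SE 0.326, limma adjusted p = 0.0324). Irf8, a factor of monocytes that also acts upstream of basophils, fell by 1.06 (limma adjusted p = 0.0335), and Stat5a, which acts below the IL-3 and Kit receptors, rose by 0.37 (limma adjusted p = 0.0407). None of the 4 was called without NA4 and WT4 (limma adjusted p from 0.182 to 0.254), without either of them alone or with no filter on low values. The call also ended for Gata2 without NA2 or WT1, for Cebpa without NA3, WT1 or WT2, for Irf8 without NA2, WT2 or WT3, and for Stat5a without any 1 library other than WT3 (limma adjusted p at most 0.0882, 0.105, 0.0973 and 0.147). Under total count scaling Gata2 (0.0528) and Stat5a (0.0892) were not called, nor with no variance trend (0.0972 and 0.0741). With log2 depth as a covariate Irf8 (0.0748) and Stat5a (0.0631) were not called. Tal1 had the highest normalised counts of the factors, at 1319 ± 97.0 and 1120 ± 116 (SD, n = 4 each, limma adjusted p = 0.0920). Gata1 was low, at no more than 18.2 normalised counts in any library. Of 9 granule markers of neutrophils 4 were tested, Mpo fell by 1.5 (limma adjusted p = 0.0422) and Prtn3 by 0.41 (0.0181), and neither was called without NA4 and WT4 (0.135 and 0.0867) or without NA2, WT2 or WT3, nor Mpo without NA3 or WT4 (at most 0.122) and Prtn3 without NA4 (at most 0.0617). Elane was at 0 in all libraries, and the sum, most of it Prtn3, was 1390 to 1709 in NA MPPs and 1754 to 2638 in WT MPPs. WT3 stood highest for the late granule markers S100a9 (158, and 0 to 47.9 elsewhere), S100a8 (64.9), Ngp (53.5) and Camp (39.8). It was also the lowest library for Cpa3, Lyn and Lat2, and the part of these cells in those values was not tested. Erythroid markers summed to 141 to 187 in NA MPPs and 228 to 297 in WT MPPs, and those of megakaryocytes to 2779 to 3064 and 2602 to 2756. The part of these cells in the values of Gata2, Cebpa and Irf8 was not tested.

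**Figure D4:**
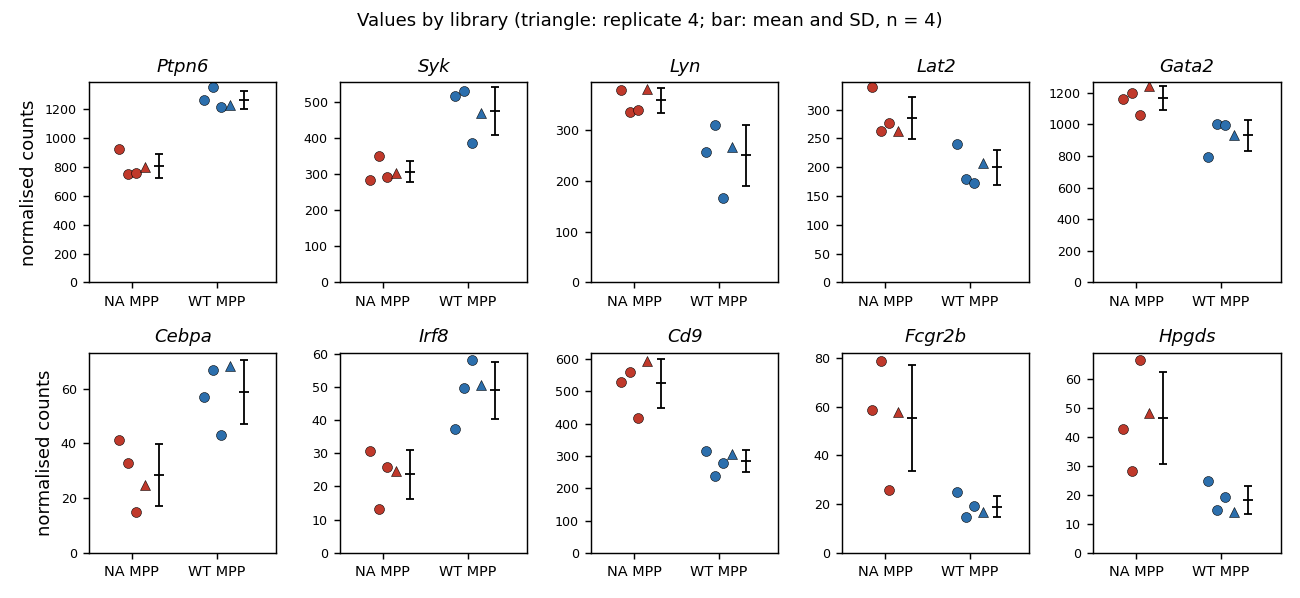
Normalised counts of 10 called genes in each NA MPP (red) and WT MPP (blue) library on linear axes from 0, with triangles for replicate 4 and bars for mean and SD (n = 4). These genes were drawn because they were called. Their groups do not overlap, as for 22.0% of 11451 genes tested, and Fcgr2b in NA3 (25.9) lies just above WT1 (24.9).

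Of 22 growth factor and surface receptors, 15 were tested and 4 called, 2 in each direction (median -0.21). The calls were 26.7% of those tested, against 17.9% of all genes tested. Cd9, a tetraspanin of mast cells, basophils and stem cells, was at 528, 561, 417 and 593 normalised counts in NA1 to NA4 and at 316, 238, 279 and 305 in WT1 to WT4. All NA libraries lay above all WT libraries, and it rose by 0.88 (SE 0.133, limma adjusted p = 0.000554, and 0.0110 without NA4 and WT4). Fcgr2b, the inhibitory IgG receptor that restrains the IgE receptor, was at 58.8, 79.0, 25.9 and 57.9 in NA MPPs and at 24.9, 14.7, 19.4 and 16.9 in WT MPPs, a rise of 1.42 (SE 0.359, limma adjusted p = 0.0146). It was not called without NA2 or NA4 (limma adjusted p = 0.0538 and 0.0579) or without NA4 and WT4 together (0.137). Cd63, a granule membrane protein used as a sign of basophil activation, fell by 0.39 (limma adjusted p = 0.00701, and 0.0755 without NA4 and WT4), and the homing integrin Itga4 fell by 0.38 (limma adjusted p = 0.0188, and 0.202 without NA4 and WT4). Itga4 was not called without NA4, WT1 or WT4 alone (at most 0.0719) or with no variance trend (0.0597). Kit itself was at 1225, 1490, 1337 and 1398 in NA MPPs and 1188, 1350, 1103 and 1149 in WT MPPs, with a log2 difference of 0.19 (95% interval -0.0070 to 0.380, limma adjusted p = 0.169). Receptors that define the mature cells were low or absent: Enpp3, Adora3 and Mrgprb2 had no read, Il1rl1 had 1 read in WT4, and Cd200r3 was above 0 in WT1 and WT4 alone. The IL-3 receptor alpha chain, Il3ra, was at 18.2 ± 10.7 in NA and 26.2 ± 12.9 in WT libraries (SD, n = 4 each). Csf2rb and Csf2rb2 are near-identical, so their reads may be divided between them.

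Among genes of granule storage and mediator synthesis, some enzymes had no read (Tph1 and Alox5), while others were present in every library, such as the prostaglandin synthase Ptgs1 (332 to 462 normalised counts) and the heparan sulphate enzyme Ext2 (406 to 534). Of 24 genes 18 were tested, with 3 called higher and 2 lower (median 0.15). The calls were 27.8% of those tested, against 17.9% of all genes tested. Slc18a2, the vesicular transporter that loads histamine and other amines, was at 1079, 961, 773 and 1006 normalised counts in NA1 to NA4 and at 1340, 1042, 1077 and 1244 in WT1 to WT4, beside at most 10 reads of Hdc and none of Tph1, which starts serotonin synthesis. The log2 difference of Slc18a2 was -0.30 (limma adjusted p = 0.0802). Alox5ap, which presents arachidonic acid to the lipoxygenase of leukotriene synthesis, was at 1090 ± 38.7 in NA and 1393 ± 174 in WT libraries (SD, n = 4 each), a fall of 0.35 (limma adjusted p = 0.0219, and 0.154 without NA4 and WT4), while Alox5, that lipoxygenase, had no read. Hpgds, the synthase of prostaglandin D2 in mast cells, was at 42.9, 28.2, 66.5 and 48.4 in NA MPPs and at 24.9, 14.7, 19.4 and 14.2 in WT MPPs. No library of one group crossed the other, and it rose by 1.27 (SE 0.342, limma adjusted p = 0.020, and 0.182 without NA4 and WT4). The chemokine Ccl3 rose by 0.61 (limma adjusted p = 0.0256), with overlap between the groups, and the fusion protein Snap23 rose by 0.38 (limma adjusted p = 0.0224). Stxbp2, which guides granule fusion, fell by 0.47 (limma adjusted p = 0.0149), and none of these 3 was called without NA4 and WT4 (limma adjusted p from 0.107 to 0.198). Of the 5 called genes none was called without NA4 alone (limma adjusted p at most 0.0914 over all fits without 1 library), and Stxbp2 alone was called in every other such fit. With no variance trend Alox5ap (0.0897), Ccl3 (0.0946), Snap23 (0.0584) and Stxbp2 (0.0604) were not called, nor Alox5ap with log2 depth as a covariate (0.0522), Ccl3 with no filter (0.0882) or Snap23 under total count scaling (0.0554). Hpgds was also not called without NA3 or WT4, Alox5ap without NA2, WT2 or WT4, Snap23 without WT2 or WT4, and Ccl3 without NA2, WT1, WT3 or WT4. Vamp8, a granule fusion protein with high normalised counts in all libraries, was at 1234 ± 138 and 1301 ± 58.0 (SD, n = 4 each, limma adjusted p = 0.556).

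The defining genes of mature cells were mostly at 0. Of 6 mast cell genes, Tpsb2, Tpsab1, Mcpt4, Cma1 and Mrgprb2 had no read in any library, and the sixth, Mitf, was at 66.4 ± 2.43 in NA and 98 ± 30.8 in WT libraries (SD, n = 4 each, limma adjusted p = 0.147). Of 6 basophil genes, Mcpt8, Prss34 and Fcer1a had no read, while Ccr3 was at 5.54 to 26.1 normalised counts in NA MPPs and 12.5 to 47.8 in WT MPPs, and Il4 reached 11.8 in NA4. Of 30 widely used genes, listed after the members were seen, none was at 0 or under 10 normalised counts in any library. These genes are abundant (the lowest value was 33.8, for Snrpd3), so they cannot tell why a single gene is at 0. Of the other marker lists, those of monocytes summed to 1658 to 1768 in NA MPPs and 1752 to 2055 in WT MPPs (F13a1 at 0), of B cells to 101 to 239 and 182 to 269 (Pax5 at 0) and of eosinophils to at most 17.7 (Epx and Ear1 at 0). The 6 marker genes of MPPs and stem cells included Cd34, which was not part of the sort. Of the 6, Cd48 fell by 1.58 (limma adjusted p = 0.00711) and Ly6a by 0.28 (limma adjusted p = 0.0257). Neither was called without NA4 and WT4 (0.0656 and 0.160), nor Ly6a without any 1 library other than NA3 or WT2 (at most 0.0739).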

How the data were processed

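RNA was sequenced from 1000-cell MPP aliquots (4 NA, 4 WT). The authors aligned and quantified genes with RSEM and normalised them with DESeq2. The submitters' processing notes name mm10. Versions, annotation and strand use are not given in the sources used here. The deposited values are a signal, RSEM expected counts after division by a size factor for each sample. Per library, 98.3% to 98.8% of values from 0.5 to 20 were whole multiples of 1 step, within 0.02 of a read. Dividing by the step gave estimated reads, used for depth and floors.

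Symbols were matched to GENCODE M21 (93.8% of rows above 0). Coordinates are mm10. Values were tested with limma 3.58.1 (R 4.3.3) on log2(value + 1) with a mean-variance trend, over genes of at least 10 in at least 4 libraries, with Benjamini-Hochberg adjustment over all of them. Fold changes of low genes depend on the added 1: the log2 difference of Cpa3 was 0.84 with 0.5 added and 0.44 with 5 added. They also depend on single low libraries, and that of Cpa3 was 0.75 with all libraries and 0.15 without WT3. Genes below the filter were read from a fit without it. The model was run on simulated data with independent libraries and the same extra variance for every gene. That setting differs from these data, where NA4 and WT4 lay near mixtures of their groups. It therefore cannot speak to calls that depend on those libraries. Intervals of read ratios are exact (Clopper-Pearson).

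The members and lists were chosen with earlier results of these data known. Named genes are the 10 members, Kit, Gata2, from each list up to 4 called genes of largest change and the 2 most abundant, and the 3 genes most like Srgn. Further names (Pik3cd, Inpp5d, Prkcd, Ddx3y, Xist, Flt3, Ly6a, Cd34, Mpo, Prtn3, S100a8, S100a9, Ngp, Camp, Nkg7, Klrb1c, Cd48, Car1, Klf1, Epor, Tfrc, Slc18a2, Ptgs1, Ext2, Runx1, Mitf, Il3ra, Csf2rb, Csf2rb2, Ccr2, Ccr3, genes at or near 0, the 30 widely used genes) were chosen after their values were seen. Alternatives were other scalings, pseudocounts, filters, variance models, a depth covariate, a replicate block and left-out libraries. The value of 1 marker gene is not reported here.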

Additional observations from a re-analysis of the deposited data

Results flagged for a closer look

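Of 61 sets of 4 library values, 4 held a value whose distance from its neighbour, as a share of the set's range, passed Dixon's 95% critical value. About 3.05 would do so by chance if the sets were independent and normally distributed. They share the same libraries, and sets of low genes hold values at 0, so this number is only a rough guide. Ms4a2 reached 5.66 normalised counts in WT2, and 0 to 0.888 in WT1, WT3 and WT4. Gzmb also reached 5.66 in WT2 and was at 0 in WT1, WT3 and WT4. Vamp8 was at 1439 normalised counts in NA3, and at 1152 to 1191 in NA1, NA2 and NA4. The estimated depth of NA4 was 3887853 reads, while NA1, NA2 and NA3 had 4909389 to 4916986.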

How the results depend on the processing

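Of 11451 genes, 2053 were called, 1152 higher and 901 lower, and the alternatives that moved these counts most left out NA4 and WT4: without both, 515 were called, 370 higher and 145 lower, and 71.8% of calls were higher against 56.1%. Scaling by the total count made 41.3% of calls higher. Without a variance trend, 595 genes were lower, and 3 genes of Fc epsilon receptor signalling, 2 transcription factors and 1 storage and mediator gene were called, in place of 8, 4 and 5. Without NA4 and WT4 these were 1, 0 and 0, and 1 of the 4 receptors was called. The transcription factors gave 2 calls under total count scaling, 2 with log2 depth as a covariate and 0 with no filter. With no filter 1 of the 10 mast cell and basophil genes, Gzmb, was called.

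Leaving out each library in turn gave 1106 (without NA4, and 1294 without WT4) to 2141 called genes, 656 to 1160 higher and 450 to 996 lower. Over the same fits 0 to 1 mast cell and basophil genes, 4 to 9 signalling genes, 0 to 5 transcription factors, 2 to 5 receptors and 0 to 6 storage and mediator genes were called. The cause was not tested. Hdc changed sign, to -0.75 without NA4 and WT4 and to between -0.57 and -0.28 without NA1, NA4, WT1 or WT4 alone, in a range up to 0.76 without WT3. These 5 were the only changes of sign among 524 values of 30 genes.

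Same-numbered libraries deviated together with Pearson r of 0.087, 0.027, 0.013 and 0.158 over tested genes. In replicates 1 and 4 alone each library correlated best with its own number. These weak values do not settle whether the numbers pair the samples. With the replicate block 2004 genes were called and Gzmb was not (log2 difference 2.79, limma adjusted p = 0.0989). The 2 planned count models were not run, because reads could not be recovered as whole numbers for every gene. Depth limits Cpa3, Gzmb, Hdc and Ms4a2, whose differences rest on at most 21 reads a library.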

Other observations

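Cpa3, Car1 and Klf1 were highest in WT1. Car1, a carbonic anhydrase of erythroid progenitors, was at 71.9 normalised counts in WT1, 1.13 in WT2, 9.11 in WT3 and 33.7 in WT4, and at 0 in all 4 NA libraries. Klf1, the erythroid transcription factor, was at 26.6 in WT1, against at most 13.3 in any other library. The other erythroid markers with reads did not share this order: Epor was at 8.88 in WT1 and 14.7 in WT2, and Tfrc at 190 in WT1, the lowest WT library, and 266 in WT2. The values in WT4, which stood close to a weighted sum of the other WT libraries, lay between those of WT1 and WT3 for Cpa3 and for Car1. For Cpa3, WT1 and WT3 were the highest and lowest libraries, so a value between them says little about WT4. The genes and this pair of libraries were picked after their values were seen.

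Prtn3, a neutrophil granule protease, was at 1371 to 2291 normalised counts in the 8 libraries, while Elane, a protease of the same granules, was at 0 in all of them and Mpo at no more than 52.4. Ccr2, a chemokine receptor of monocytes and basophils, was at 0 in each NA library and at 3.55, 14.7, 7.97 and 8.88 in WT1 to WT4. These genes were picked after their values were seen.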
